A study of Arabidopsis thaliana with 13 samples.

Results

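The distance between the starting cotyledon and the same tissue late in vascular induction was measured on 4 of the 13 arrays of the time course. The induced side was the 3 arrays labelled 60, 66 and 72 h, and the starting side was the lone array labelled 0 h. The plant was Arabidopsis thaliana, accession Col-0. Its cotyledons came from seedlings 6 days old, grown at 22 °C in continuous light in liquid MS medium. All groups are labelled with the same 3 inducers: 2,4-D (1.25 mg/L), a synthetic auxin, kinetin (0.25 mg/L), a cytokinin, and bikinin (10 µM), an inhibitor of the GSK3-like kinases that restrain brassinosteroid signalling. There was 1 array per time, and no culture without inducers is among the samples analysed here, so time in culture and the effect of the inducers cannot be told apart. Nothing in the labels says how many seedlings were pooled or that times came from separate cultures, and p-values below measure only the spread between arrays.

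The induction system, called VISUAL, makes leaf mesophyll cells lose their photosynthetic identity, divide as procambium-like cells and then become xylem or phloem cells. Xylem vessel cells lay down a secondary wall of cellulose, xylan and lignin and then kill and clear themselves with vacuolar proteases. Phloem sieve cells keep a living cytoplasm and are served by companion cells, and the CLE peptides secreted by phloem cells hold neighbouring procambium in a dividing state. Mesophyll cells are recognised by the nuclear genes of the photosystems, the Calvin cycle and chlorophyll synthesis. Several markers that define the induced cells, among them VND6, VND7, IRX3, APL and SEOR1, were not analysed here, so the xylem and phloem labels rest on the other members of their lists.

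Values are quantile-normalized and on a log scale read as log2. Each side is given as its array values, and a difference is the mean of the 60, 66 and 72 h arrays minus the 0 h value. A gene was called when the Benjamini-Hochberg adjusted p in limma was under 0.05 and the log2 difference was at least 1. The lone 0 h array was assumed to vary as arrays do within the other groups of times, and a two-sided exact permutation test of 3 arrays against 1 cannot go below p = 0.25. The 0 h array also lies in another set of arrays: the array medians of the deposited values were 5.82 to 5.92 at 60 to 72 h and 5.16 at 0 h, with the break between 24 and 30 h. Array set and induction therefore cannot be told apart within that 6 h step, and beside the main genes the difference is also given without it, summed over the other steps. In bulk tissue, fewer cells of a type and less RNA per cell cannot be told apart.

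At 60 to 72 h, 1525 of 11020 tested genes were higher than at 0 h, 13.8% of those tested, and 2093 were lower, 19.0% (32.8% in either direction). The changes upward were fewer but larger among the genes that passed the filter on low values. Among called genes the median log2 difference was 2.04 for those higher and -1.58 for those lower. At least 16-fold differences were found for 212 genes upward and 54 downward, and at least 64-fold for 15 upward and 4 downward. The filter used the mean over all 13 arrays, of which 1 was at 0 h. A gene dim at 0 h and high later therefore passed more easily than the reverse. The contrast in size between directions thus depends on the filter, and fold counts without it are not given. Of the genes that were higher, 569 lay below the 40th percentile of the array at 0 h, so their fold rests on a dim starting value, and with values held at that percentile 1288 genes were higher and 1662 lower. The split between directions depended on the scaling and on the filter: 42.2% of calls were upward here. Centring on array medians gave 1380 higher and 2307 lower, and the values as deposited gave 2993 and 920. Leaving out the lowest 50% of probe sets gave 1162 higher and 1154 lower, and no filter on low values gave 1647 and 3024. The median over all genes was -0.10 with quantile normalization, -0.20 with median centring and 0.51 as deposited.

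The nuclear genes of photosynthesis that were tested were lower at 60 to 72 h almost throughout. Of 27 tested genes of photosystems and light harvesting, the Calvin cycle and photorespiration, chlorophyll synthesis and the chloroplast NDH complex, 25 fell and 0 rose. Over all tested genes 19.0% fell and 13.8% rose. The median log2 difference of the 27 genes was -3.22, against -0.10 over all genes tested. The lists hold 60, 35, 32 and 22 genes in that order, so most members were not tested. PSAN, a subunit of photosystem I, read 6.75, 6.76 and 6.71 at 60, 66 and 72 h and 10.91 at 0 h. The difference was -4.17 (SE 0.38, limma adjusted p = 2.67e-05), or -3.06 without the 24 to 30 h step. The 3 induced arrays were nearly equal and all far under the starting value. LHCB4.2, a minor antenna protein of photosystem II, was at 5.27, 5.72 and 5.25 and at 9.51 at 0 h, a fall of 17.2-fold (limma adjusted p = 5.96e-05).

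The exception among the antenna genes was LHCB4.3, a close relative of LHCB4.2 and LHCB4.1. Its values were 5.31, 5.46 and 5.52 at 60 to 72 h and 5.63 at 0 h, a difference of -0.20 that did not pass (SE 0.30, limma adjusted p = 0.602). Levels of LHCB4.3 and LHCB4.2 are not compared, since each gene has its own probe set. Why LHCB4.3 did not fall was not tested. LHCB4.1 fell 7.91-fold. LHB1B2, a major light-harvesting protein, had 7.92, 8.67 and 8.75 at 60 to 72 h against 11.81 at 0 h. It was the called photosystem gene with the widest spread among the induced arrays, and its difference of -3.37 (limma adjusted p = 0.00688) was -1.81 without the 24 to 30 h step and lost its call when array set was a term beside a smooth course.

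NdhL, NdhN and NdhU are nuclear-encoded subunits of the complex that returns electrons from NAD(P)H or ferredoxin to the plastoquinone pool. All 3 tested members fell. NdhL stood at 6.47, 6.50 and 6.01 at 60 to 72 h and at 11.20 at 0 h, 29.3-fold lower (limma adjusted p = 0.000254). Among Calvin cycle genes, SBPASE, the regeneration enzyme sedoheptulose-bisphosphatase, gave 8.12, 8.07 and 7.64 against 11.49, which is 11.7-fold lower. PRK, phosphoribulokinase, fell 10.3-fold, RCA, which reactivates Rubisco, 7.95-fold (-2.99, or -1.92 without the 24 to 30 h step), and HPR, the peroxisomal hydroxypyruvate reductase of photorespiration, 6.59-fold.

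Of 9 tested genes of chlorophyll and tetrapyrrole synthesis, 8 fell, where 19.0% of all tested genes fell. CHLM, the magnesium-protoporphyrin methyltransferase, fell 10.6-fold (-3.40, SE 0.36, limma adjusted p = 5.31e-05). HEME2 and HEME1 are uroporphyrinogen decarboxylases that serve heme as well as chlorophyll. HEME2 read 6.18, 6.26 and 6.43 at 60 to 72 h and 9.62 at 0 h, and HEME1 fell by 3.26 on the log2 scale. PORB, the light-dependent protochlorophyllide reductase, fell by 3.29. HEMA3 was the member without a call (-0.32). GSA1 and HEMA2, which act at the start of the pathway, fell by 2.25 and 1.56. HEMA2 lost its call when array set was a term and on the values as deposited.

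Of 63 tested genes carried by the chloroplast genome, 15 fell, 0 rose and 48 were not called, with a median difference of -0.51. The share that fell was 23.8%, against 19.0% of all genes tested, and it depended on the scaling: with median centring 43 of the 63 were called lower. The uncalled genes included psbA and rbcL. psbA, which encodes the D1 protein of photosystem II, had 13.51, 13.43 and 13.56 at 60 to 72 h and 13.53 at 0 h, and rbcL, the large subunit of Rubisco, had 13.10, 12.96 and 13.09 against 13.45. Larger falls were measured for ndhF (-2.18), rps18 (-2.07), ccsA (-2.06) and psbM (-2.01), an NDH subunit, a ribosomal protein, a cytochrome assembly factor and a small photosystem II subunit. rpoB, a subunit of the plastid-encoded RNA polymerase, fell by 1.31, and rpoC1 and rpoC2 by 1.08 and 1.06. Without the 24 to 30 h step rpoC1 was at -0.72 and rpoC2 at -0.82, both lost their call when array set was a term, rpoC1 also on the values as deposited, and rpoC2 without the 66 h array. Both psbA and rbcL were at or above the 99.9th percentile of the tested genes on these arrays, where quantile normalization leaves little room for a difference. With median centring psbA was at -0.72 and rbcL at -1.09, and the list median was -1.22. Median centring shifts every gene by the same amount against the values as deposited. As an example, ndhF was at -2.82 with median centring and at -2.11 on the values as deposited. Which scaling holds for genes as bright as psbA and rbcL was not tested.

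**Figure D1:**
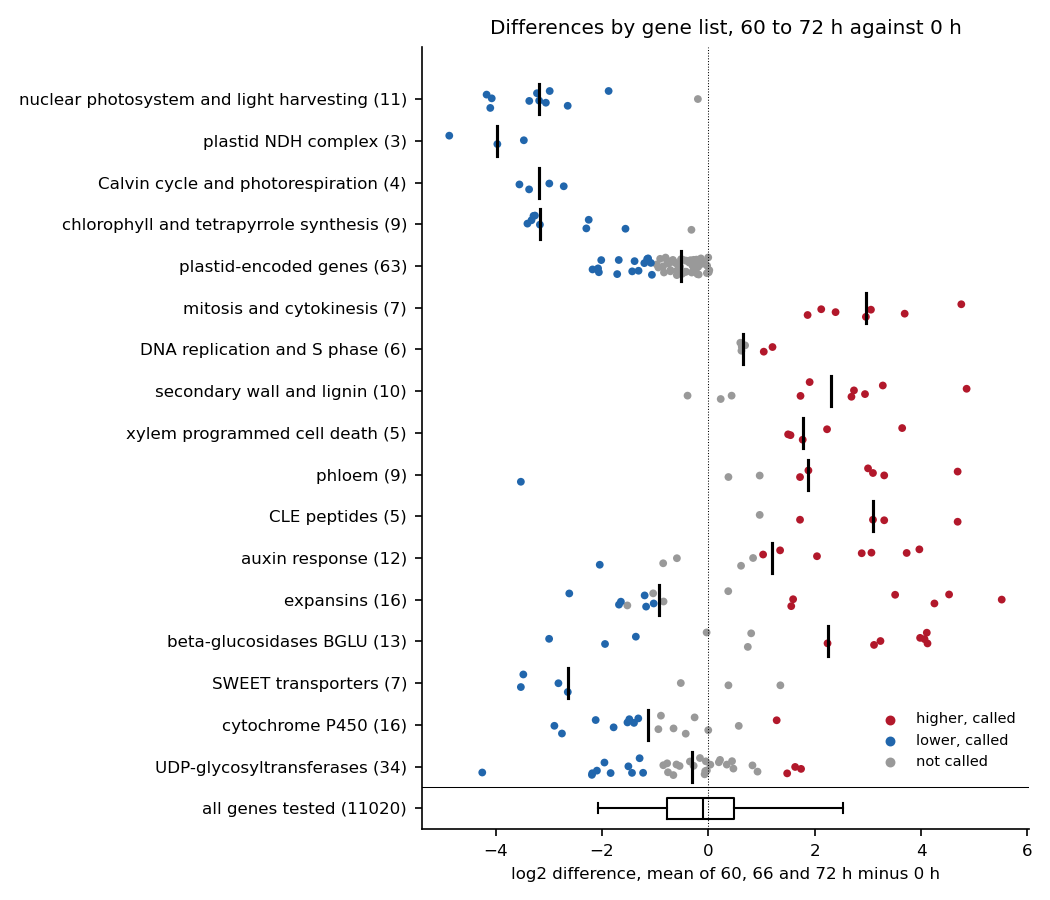
Log2 differences at 60 to 72 h against 0 h by gene list, each point a tested gene (number in brackets), the black bar the list median and the colour the call. The box for all 11020 genes spans the quartiles with whiskers at the 5th and 95th percentiles. The nuclear photosynthesis lists lie around -3, mitosis at a median of 2.96, and expansins, beta-glucosidases and UDP-glycosyltransferases on both sides of 0.

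Genes of mitosis were higher without exception among those measured. All 7 tested members of the mitosis and cytokinesis list, which holds 52 genes, rose, where 13.8% of all tested genes rose. Their median log2 difference was 2.96. The 3 Aurora kinases, which order chromosome segregation and the plane of division, were among them. AUR2 was at 9.67, 9.79 and 9.74 at 60 to 72 h and at 4.98 at 0 h, a rise of 27.1-fold (log2 difference 4.76, SE 0.59, limma adjusted p = 0.000115) and of 4.18 on the log2 scale without the 24 to 30 h step. AUR1 rose 8.33-fold and AUR3 4.36-fold. The spindle checkpoint gene BUBR1 had 9.88, 9.82 and 9.60 at 60 to 72 h against 6.08 at 0 h, and its partner BUB3.1 rose 5.25-fold. KINESIN-12B, a motor of the phragmoplast that builds the new cell wall, rose 7.80-fold, and HTR12, the centromeric histone, 3.65-fold. HTR12 lost its call when array set was a term.

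Of 6 tested DNA replication genes, from a list of 61, 2 rose and 4 were not called, with a median of 0.66. Over all tested genes 13.8% rose and 19.0% fell. PRL, the helicase subunit MCM7, rose 2.31-fold and ICU2, the catalytic subunit of DNA polymerase alpha, 2.06-fold. Neither kept a difference of 1 without the 24 to 30 h step (0.83 and 0.78) or its call when array set was a term, and ICU2 was not called with median centring. The uncalled members POLA3, POLD3, TSK and PSF2 lay between 0.60 and 0.69.

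The secondary wall and lignin list holds 66 genes, of which 10 were tested. Of these 7 rose and 0 fell, where 13.8% of all tested genes rose and 19.0% fell. The median of the 10 genes was 2.299 on the log2 scale. The genes that rose act mainly on xylan, the hemicellulose of the vessel wall. TBL33, a xylan acetyltransferase, read 9.11, 9.49 and 9.38 at 60 to 72 h and 4.47 at 0 h (4.86, SE 0.89, limma adjusted p = 0.000932). GUT2, a glycosyltransferase that extends the xylan backbone, read 10.02, 10.54 and 10.50 against 7.07, a 9.73-fold rise. IRX15 and IRX15-L, a pair of close relatives required for normal xylan, were 6.68-fold and 6.46-fold higher, and the values of both were ordered 60, 66, 72 h from low to high. For IRX15-L these were 9.79, 10.00 and 10.18 against 7.30 at 0 h, and its call was lost with 72 h as the only late array. The difference of IRX15, 2.74, was 1.36 with values held at the 40th percentile.

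AT5G66390, listed in RefSeq as the class III peroxidase PRX72, gave 7.44, 8.41 and 8.51 at 60 to 72 h and 5.18 at 0 h. The 60 h array was clearly under the later pair, and the difference was 2.95 (SE 0.62, limma adjusted p = 0.00204). TBL31 rose 3.75-fold, or by 1.01 on the log2 scale with values held at the 40th percentile. TBL34 rose 3.33-fold with an adjusted p of 0.0388 in limma, and its call was lost without the 12, 42, 48, 66 or 72 h array. The members without a call were HCT, an enzyme of the lignin precursor pathway (0.44), GUT1, the relative of GUT2 (0.23), and TBL32, the relative of TBL33 (-0.39). Without the 24 to 30 h step the list median was 3.09, above that with it, and the median step of these genes was -0.47.

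Proteases listed under xylem cell death were higher where they were tested. The list of xylem programmed cell death holds 22 genes, and all 5 tested members rose, with a median of 1.77. Over all tested genes 13.8% rose. Whether these 5 genes mark dying xylem cells in this tissue was not tested. BETA-VPE was highest at 18 h, at 9.84, and stood at 8.52, 8.64 and 8.16 at 60, 66 and 72 h. scpl48, a serine carboxypeptidase-like gene, had 11.69, 11.81 and 11.91 at 60 to 72 h and 8.16 at 0 h, a rise of 12.5-fold (limma adjusted p = 0.000195), and SCPL49 rose 3.42-fold. Vacuolar processing enzymes are proteases of vacuole-driven cell death. Of these, ALPHA-VPE rose 4.70-fold, BETA-VPE 2.92-fold and GAMMA-VPE 2.83-fold. ALPHA-VPE stood at 5.52 at 60 h but 6.96 and 7.10 at 66 and 72 h, against 4.29 at 0 h, the widest spread in the group. With array set as a term beside a smooth course 2 of the 5 genes were called, scpl48 and GAMMA-VPE, while all 5 kept a difference of at least 1 without the 24 to 30 h step. The regulators of xylem fate that were measured missed the size limit: LHW, a partner of the vascular factor TMO5, differed by 0.97 (8.85, 8.85 and 8.83 against 7.87) and PHV, a class III homeodomain-leucine zipper gene, by 0.39. LHW was called on the values as deposited.

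**Figure D2:**
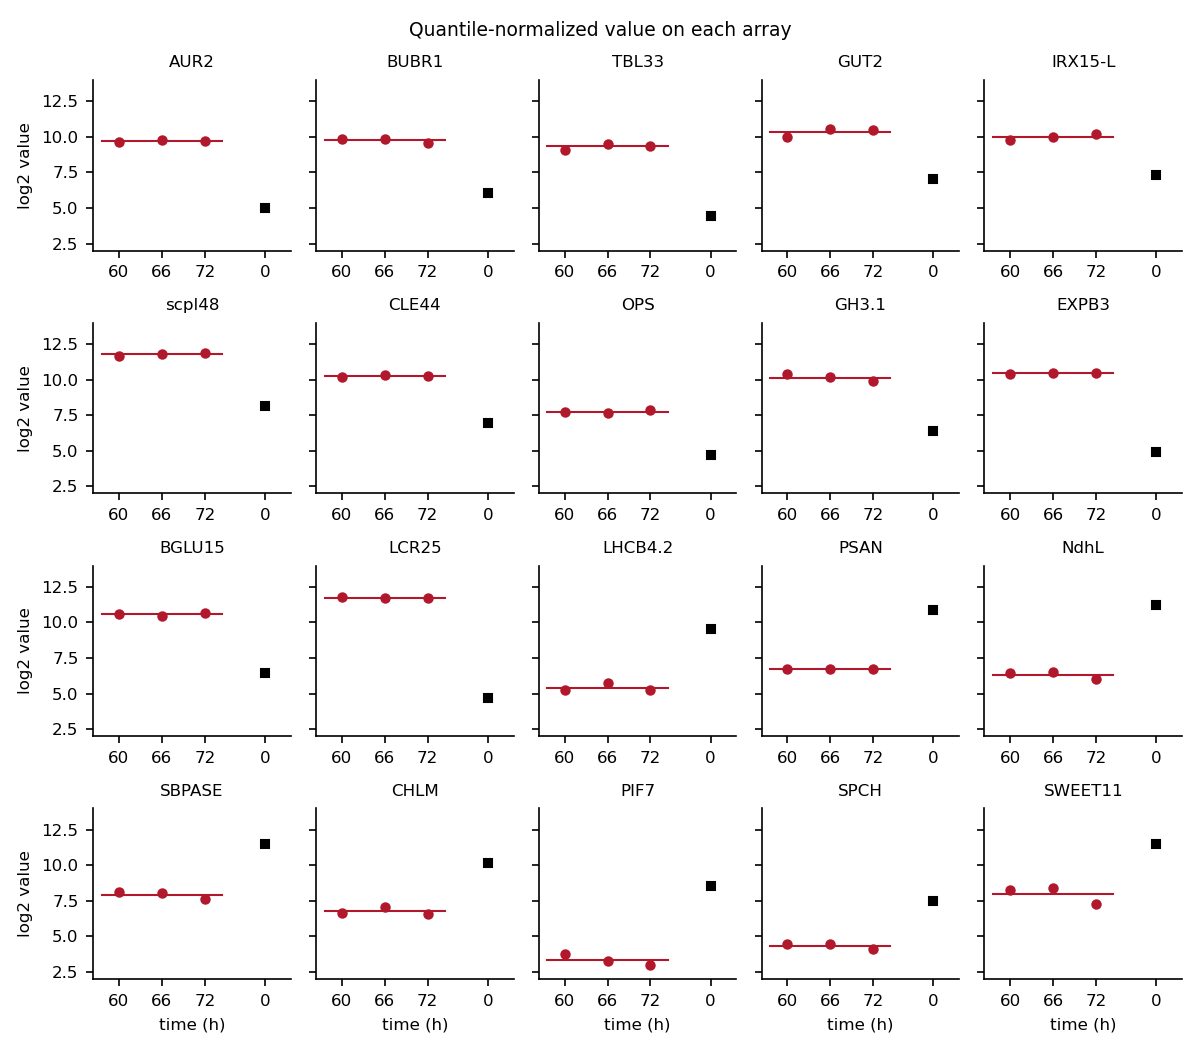
Quantile-normalized log2 value on each array for 20 genes, 1 panel a gene: red circles are the 60, 66 and 72 h arrays, the red line is their mean and the black square is the lone 0 h array. The first 12 genes read higher on all 3 induced arrays, AUR2 near 9.73 and 4.98 at 0 h, and the last 8 lower. Levels are not compared between panels, since each gene has its own probe set.

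Of 9 tested phloem genes, from a list of 57, 6 rose, 1 fell and 2 were not called, with a median of 1.88. Over all tested genes 13.8% rose and 19.0% fell. CLE44 and CLE41 encode the same peptide, TDIF, which binds the receptor PXY on procambium and holds back xylem differentiation. CLE44 read 10.17, 10.33 and 10.23 at 60 to 72 h and 6.94 at 0 h, 9.91-fold higher (limma adjusted p = 5.69e-05), and CLE41 read 10.25, 10.23 and 10.12 against 8.48, 3.31-fold higher. CLE25 rose 8.55-fold. CLE45, whose peptide restrains protophloem, had 6.37, 6.62 and 6.89 at 60 to 72 h against 1.94 at 0 h. The starting value was dim, and the CLE45 difference of 4.69 became 1.81 with values held at the 40th percentile and 2.65 without the 24 to 30 h step. CLE26 lay just under the size limit at 0.97 (5.80, 5.89 and 5.85 against 4.88).

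OPS, a membrane protein needed for protophloem continuity, rose 8.02-fold, with 7.70, 7.63 and 7.84 at 60 to 72 h against 4.72 at 0 h (limma adjusted p = 0.000406). AT5G53730, listed in RefSeq as NHL26, a gene of companion cells that affects sugar export, rose 3.69-fold and lost its call when array set was a term. SWEET11, the sucrose exporter that feeds leaf phloem, was the member that fell. It stood at 8.24, 8.40 and 7.26 at 60 to 72 h against 11.49 at 0 h, an 11.5-fold fall (limma adjusted p = 0.00066), lowest at 72 h. SWEET13, which works beside SWEET11 in the leaf, was at 4.58, 5.96 and 4.43 against 4.61, and its sides overlapped.

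The cambium list had 4 tested members. BRL1, a brassinosteroid receptor of vascular cells, rose 10.0-fold, with 6.97, 7.14 and 7.46 at 60 to 72 h against 3.87 at 0 h (limma adjusted p = 5.79e-05). MOL1, a receptor-like protein that represses cambial division, rose 2.24-fold. The PXY relatives AT1G08590 and AT4G28650 differed by -0.09 and -0.14 and were not called.

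Auxin response genes rose more often than they fell: of 12 tested, 7 were higher, 1 lower and 4 not called, with a median of 1.19. The list holds 49 genes, and over all tested genes 13.8% rose and 19.0% fell. GH3.1 and GH3.3 encode enzymes that attach amino acids to auxin. GH3.1 read 10.38, 10.17 and 9.88 at 60 to 72 h and 6.41 at 0 h, 13.3-fold higher, and GH3.3 11.41, 11.43 and 11.26 against 9.32, 4.12-fold higher. Both were lower at 72 h than at 60 h. The Aux/IAA genes IAA30, IAA20 and IAA29 rose by 3.97, 3.07 and 2.88 on the log2 scale. IAA30 and IAA20 started dim, at 2.01 and 2.39, and with values held at the 40th percentile their differences were 1.17 and 0.65, the second without a call. GH3.3 and GH3.9 lost their calls when array set was a term. GH3.9 was the member that fell, 4.12-fold, and its difference without the 24 to 30 h step was -1.07 against -2.04 with it. Of 4 tested cytokinin response genes, ARR15, a negative response regulator, rose 6.84-fold (6.00, 6.02 and 6.17 against 3.29), and the other members were not called. ARR15 also started dim, and its difference of 2.77 was 1.25 with values held at the 40th percentile.

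Of 16 tested expansins, wall-loosening proteins, 6 rose and 6 fell, with a median of -0.93, where 13.8% of all tested genes rose and 19.0% fell. EXPB3 had 10.43, 10.45 and 10.50 at 60 to 72 h and 4.94 at 0 h, 45.8-fold higher (limma adjusted p = 4.24e-06), with the induced arrays nearly equal. EXPA15, EXPA4 and EXPA8 rose 23.1-fold, 19.1-fold and 11.4-fold. EXPA16 fell 6.13-fold (-2.62, or -1.55 without the 24 to 30 h step), and EXPA23, EXPA24 and EXPA25 fell by between 1.17 and 1.68 on the log2 scale. Those last 3 are neighbours in the TAIR10.1 annotation and closely related, so their probe sets may share signal. EXPA24 and EXPA25 were at -0.87 and -0.94 without the step, and EXPA23 lost its call when array set was a term or with values held at the 40th percentile. Of 16 GH9 cellulases, 5 rose and 4 fell. GH9B6 rose 15.4-fold and GH9C2 10.2-fold.

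The trichome birefringence-like family holds the acetyltransferases of xylan and pectin. Of its 19 tested members 7 were higher and 3 lower. For this family and the next, the shares over all tested genes were 13.8% higher and 19.0% lower. TBL36 read 10.58, 10.91 and 10.93 at 60 to 72 h against 6.19 at 0 h, 24.5-fold higher (limma adjusted p = 0.000253), beside TBL33 among the wall genes above. Beta-glucosidases rose in 7 of 13 tested members and fell in 3, with a median of 2.24. BGLU28, BGLU15, BGLU41 and BGLU33 rose between 15.8-fold and 17.4-fold. BGLU15 and BGLU28 are adjacent genes in TAIR10.1, and BGLU28 lost its call when array set was a term. BGLU45 and BGLU47, which act on glucosides of lignin precursors, rose by 3.24 and 3.12 on the log2 scale. BGLU45 started at 1.74 and was at 0.22, without a call, with values held at the 40th percentile. The 24 to 30 h step of BGLU33 was 1.39 of its difference of 3.98. BGLU44 fell 7.97-fold.

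Sugar transporters of the SWEET family were lower where they were called. SWEET11, SWEET1, SWEET2 and SWEET17, 4 of 7 tested members, fell and 0 rose, where 19.0% of all tested genes fell. SWEET1 had 5.10, 4.94 and 4.45 at 60 to 72 h against 8.31 at 0 h, 11.2-fold lower. SWEET17 was dim on the induced arrays, and its difference of -2.64 was -1.68 with the 40th percentile as the floor. AMY1, a secreted alpha-amylase, moved the other way, with 9.65, 10.26 and 10.37 against 4.82, 38.6-fold higher (limma adjusted p = 5.21e-05). Among 16 cytochrome P450 genes, nearly all of the CYP71B branch, 8 fell and 1 rose, and among 34 UDP-glycosyltransferases 10 fell and 3 rose, where 19.0% of all tested genes fell and 13.8% rose. Of 5 tested cold and drought genes, KIN2, COR15A and COR47 fell, by 2.63, 2.55 and 1.31 on the log2 scale. COR15A was at -1.56 without the 24 to 30 h step and lost its call when array set was a term. KIN2 and COR47 lost theirs with 72 h as the only late array, and COR47 also without the 66 or the 72 h array and on the values as deposited.

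Markers of other leaf cell types were few. SPCH, the factor that starts the stomatal lineage, fell 8.56-fold, with 4.49, 4.45 and 4.13 at 60 to 72 h against 7.45 at 0 h (limma adjusted p = 5.92e-05), and its difference of -3.10 was -1.81 without the 24 to 30 h step. FMA, which acts at its last step, was not called (-0.68). In the epidermis list WSD1, a wax ester synthase, rose by 3.74 on the log2 scale and lost its call when array set was a term, and AT4G13840 fell by 1.43, without a call on the values as deposited. WSD1 started dim, at 2.93, and was highest at 6 h, at 8.68. Its difference was 1.85 with values held at the 40th percentile. In the callus and wound list neither of the 2 tested genes was called, BBM at -0.71 and XTH19 at 1.32. Their part in the results above was not tested.

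Without regard to any list, the largest rises were those of AT2G31540, AT5G52390, AT5G52270, LCR25 and AT1G03820, between 125-fold and 158-fold. AT5G52390 was at 11.04, 11.66 and 11.29 at 60 to 72 h and 4.07 at 0 h. LCR25, named as a low-molecular-weight cysteine-rich peptide of the defensin-like class, was at 11.77, 11.71 and 11.72 against 4.66 (7.07, SE 1.43, limma adjusted p = 0.00162). AT1G03820 was at 8.07, 8.13 and 8.22 against 1.18, and its difference of 6.96 was 3.33 with values held at the 40th percentile. AT2G31540 and AT5G52270 also began dim, at 2.25 and 2.22, and held differences of 4.74 and 4.59 under that floor.

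Among other named genes with large rises, the defensin PDF2.1 was at 9.37, 9.80 and 9.74 at 60 to 72 h against 3.01 at 0 h (6.63, limma adjusted p = 5.76e-05). The difference of PDF2.1 was 4.825 with values held at the 40th percentile. Its neighbours in the TAIR10.1 annotation moved differently: LCR68 fell by 2.11 on the log2 scale and LCR69 rose by 1.41. LCR69 was at 0.99 with median centring and 0.82 with array set as a term, without a call in either. AGL93, a MADS-box gene, rose 51.0-fold (5.67, or 3.53 with values held at the 40th percentile), the RING-type gene ATL4H 43.9-fold and the glutathione transferase GSTF4 37.6-fold. GSTF4 was still moving, with 10.09, 10.70 and 10.94 at 60, 66 and 72 h against 5.34.

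The largest falls were those of AT2G45180, AT4G22470, AT3G54400, AT2G38240 and AT1G27020, between 52.7-fold and 84.7-fold. AT2G45180 stood at 4.82, 4.98 and 3.77 at 60 to 72 h against 10.93 at 0 h. AT4G22470 stood at 4.88, 4.59 and 5.06 against 11.20. PIF7, a phytochrome-interacting factor of the shade response, was at 3.76, 3.24 and 3.01 against 8.56, 37.4-fold lower (limma adjusted p = 5.34e-06). AT5G64120, listed in RefSeq as the peroxidase PRX71, fell 29.8-fold, the glycosyltransferase UGT85A2 19.1-fold and WRKY29, a defence-related factor, by 4.11 on the log2 scale. The class III peroxidases thus held both a large rise, PRX72, and a large fall, PRX71.

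**Figure D3:**
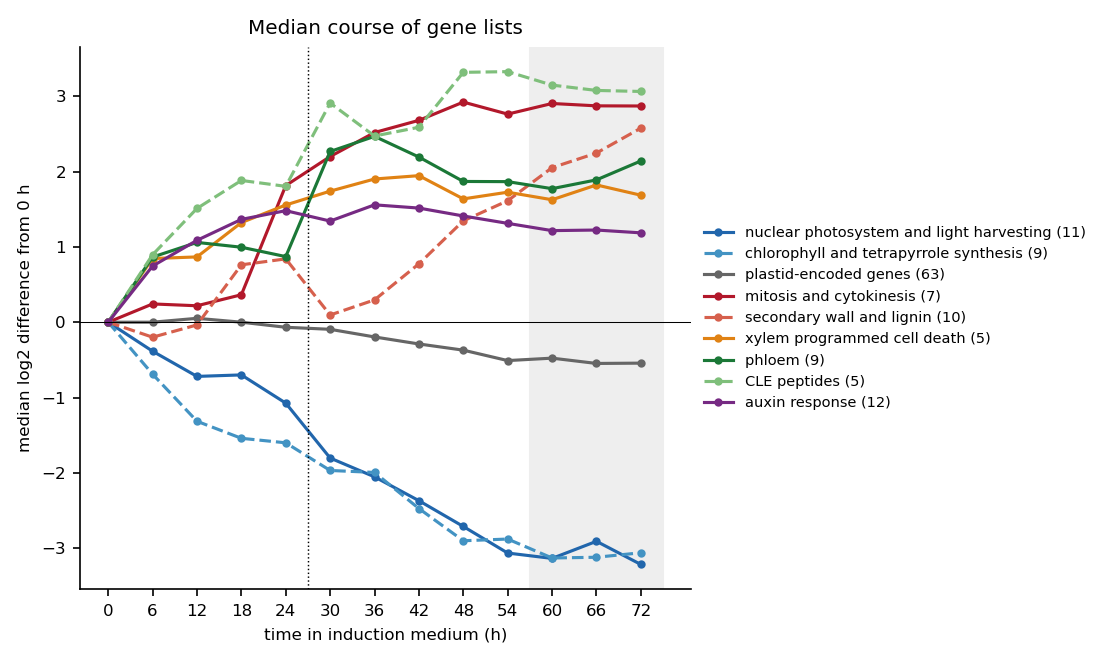
Median log2 difference from 0 h over the tested genes of each list (number in brackets) on the 13 arrays. Grey marks the 60 to 72 h arrays and the dotted line the break in array level between 24 and 30 h. The photosystem list reaches -1.07 at 24 h and -3.22 at 72 h, xylem cell death 1.56 and 1.69, and the secondary wall list 0.84 and 2.58 after a dip to 0.10 at 30 h.

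The net difference was reached at different times. As a description, the first time at which a gene passed the midpoint of its net difference was read from its 13 arrays by linear interpolation. The median over called genes was 21.7 h for those higher and 16.5 h for those lower. By 6 h, 24.1% of the higher and 22.3% of the lower genes had first reached it, and by 24 h 60.9% and 70.5%. A gene could later fall back across its midpoint: IRX15 first reached it at 23.8 h but read 4.82 at 24 h and 3.97 at 30 h. Between 42 and 54 h a later group stood out among the higher genes, with 279 of them (18.3%) passing their midpoint there, against 74 of the lower (3.54%). That interval lies wholly after the break in array level. Midpoints between 24 and 30 h, those of 15.1% of the higher and 16.8% of the lower genes, fall in the step with the break in array level. Array set and timing cannot be told apart there.

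Members of that late group among the named genes were IRX15-L, AT5G66390 (PRX72), TBL34, AT2G31110 (TBL40), AT2G31540, AT5G52270, GSTF4, NTL, TET5, UBP16, SBT3.12 and ATG8B, with midpoint times between 42.2 and 53.8 h. GSTF4 passed its midpoint at 44.2 h and PRX72 at 49.9 h. EXPB3 and CLE44 did so at 4.96 and 4.80 h, and GH3.1 at 4.29 h. Mitotic genes were intermediate, BUBR1 at 22.7 h and AUR2 at 19.7 h. The median over the called genes of a list was 42.0 h for secondary wall and lignin, 22.7 h for mitosis, 26.5 h for photosystems and light harvesting, 15.01 h for chlorophyll synthesis, 5.33 h for xylem cell death and 4.42 h for auxin response. The photosystem time of 26.5 h lies in the step with the break in array level, so it may reflect array set as well as induction. In the secondary wall list the midpoint time varied widely by gene: TBL33 and GUT2 passed it at 11.6 and 17.2 h.

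**Figure D4:**
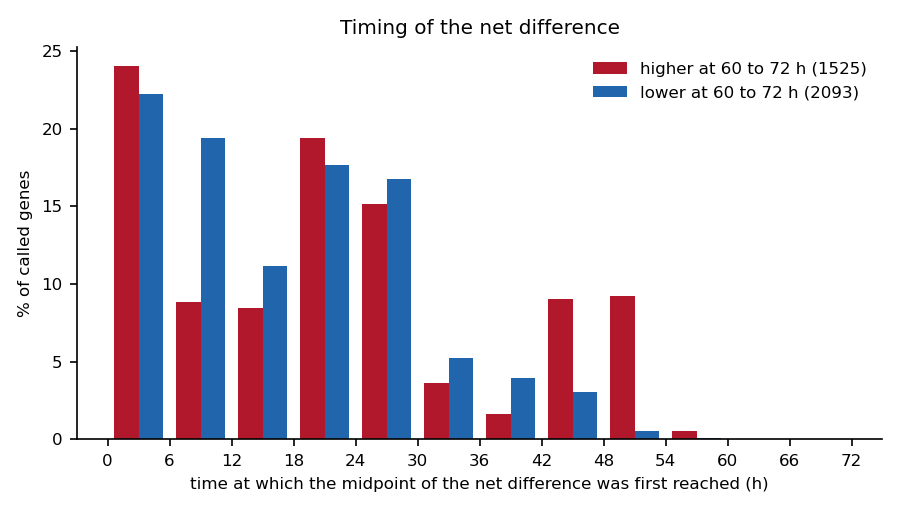
Share of called genes (vertical axis, %) by the time at which the midpoint of the net difference was first reached (6 h bins), red for the 1525 genes higher and blue for the 2093 lower at 60 to 72 h. Both directions peak in the first 6 h, and red rises again to 9.05% and 9.25% in the bins from 42 to 54 h.

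The distance from 0 h grew through the course. The root mean square log2 difference from 0 h over all tested genes was 0.73 at 6 h, 0.94 at 18 h, 1.12 at 30 h, 1.38 at 60 h and 1.45 at 72 h. Among the higher genes, 238 stood further out at 72 h than at 60 h by at least 0.5 and 48 stood nearer; among the lower genes these numbers were 196 and 92. Some genes passed through a larger excursion than their net difference: 86 higher and 26 lower genes had been at least 1 beyond their final level.

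A net comparison also misses genes that left and came back. Of the 7250 uncalled genes with a net difference under 1, 142 had departed from 0 h by at least 2 on some array between, 123 of them upward, and 126 had their largest departure by 24 h. SAG29, also called SWEET15, read 5.02, 4.58 and 3.85 at 60, 66 and 72 h and 5.00 at 0 h, but 9.99, 10.45 and 9.39 at 6, 12 and 18 h. The calmodulin-like gene CML41 stood at 5.42, 5.27 and 4.53 against 4.60, after 8.75 at 12 h. SUFE2, which activates cysteine desulfurase in plastids, was at 2.96, 3.09 and 3.01 against 2.89, after 6.95 at 6 h. These 3 were chosen after their values were seen.

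The share of the net difference that falls in the step with the break in array level was measured. Summed over the other steps, 2847 of the 3618 called genes (78.7%) kept a difference of at least 1 in the same direction. By direction, this was 85.0% of the higher and 74.1% of the lower genes. The genes were read on the same arrays and are not independent, so no interval is given. The median share of the net difference lying outside the step was 87.9% for the higher genes and 82.7% for the lower. The sign turned in 4 higher and 4 lower genes. Taking the means of 18 and 24 h against 30 and 36 h as the step left 70.9%. Of the 25 photosynthesis genes called lower and the 7 mitotic genes called higher, all kept a difference of at least 1 without the step, as did the 7 secondary wall genes. The step also contains 6 h of induction, so leaving it out removes real time as well.

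**Figure D5:**
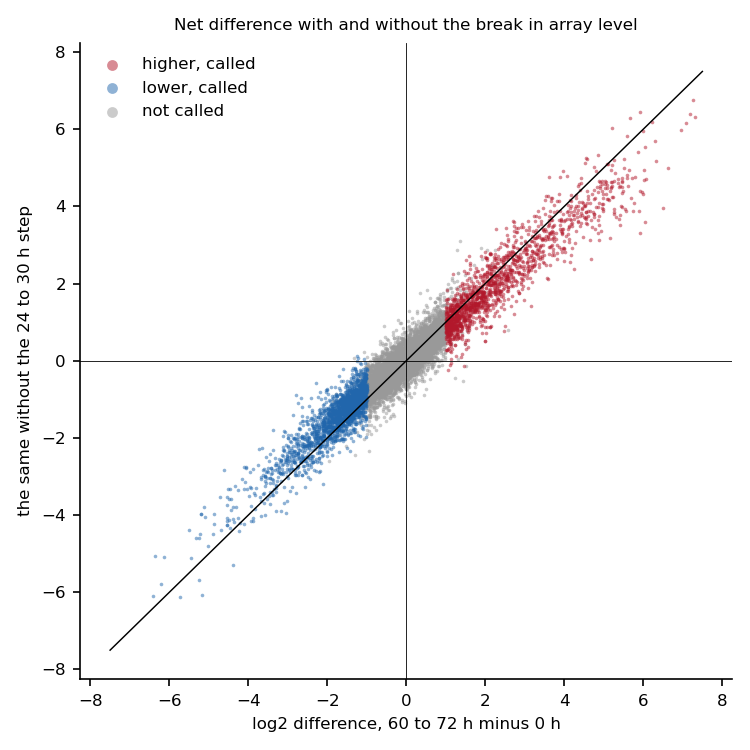
Log2 difference of each tested gene at 60 to 72 h against 0 h (horizontal) and the same difference without the 24 to 30 h step (vertical), coloured by call, with the line of equality. Points follow the line with a smaller slope, the median share kept being 87.9% for higher and 82.7% for lower genes.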

How the data were processed

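RNA from each cotyledon sample was hybridised to 1 Affymetrix array. The table deposited by the authors holds 1 value per probe set, whose range is that of log2 values. Which log base, background correction, summary and normalization the authors used was not given in the sources used here. GCOS is named, without a role, per the submitters' processing notes. No detection calls were used, and the number of arrays limits the precision.

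Of 38408 probe sets, 16722 had 1 gene in the platform annotation, 759 several and 20927 none. Names were updated to TAIR10.1, in which 16574 matched. Arrays were quantile-normalized, probe sets in the lowest 30% by mean over all arrays were dropped, and the probe set with the highest mean was kept per gene, leaving 11020 of 16550 genes. limma 3.58.1 in R 4.3.3 fitted 1 mean each for 0 h, 6 to 24 h, 30 to 54 h and 60 to 72 h over 13 arrays, with 9 residual degrees of freedom and an intensity trend. The spread therefore includes change within a group of times. Pandas 2.3.3 and matplotlib 3.10.9 summarised and drew the results in Python 3.11.15.

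The comparison, gene lists and families were chosen with earlier results of these data known, and 5 symbol mismatches were taken out of the lists afterwards. A pattern for 1 factor family that matched clone names was also corrected. Named genes were the 10 largest rises and falls with a symbol, the 5 largest with or without one, up to 4 called members per list, and every measured member of the xylem, wall, cell death, phloem and cambium lists. Others are members of the lists described. Neighbouring genes come from the order of genes in TAIR10.1. On simulated data with 200 of 11020 genes changed, log2 changes of 1, 2 and 3 were recovered in 33, 80.5 and 95%, and 5 to 10 unchanged genes were called. The simulated noise was independent between genes and arrays and held no offset between array sets. Far fewer genes were changed than were called in the data, so these figures need not hold there. Alternatives covered scaling, filters, floors, probe choice, the spread, array weights, other late groups, an array set term, and leaving out each array but 0 h. Promoter motifs and sequences were not used here.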

Additional observations from a re-analysis of the deposited data

Results flagged for a closer look

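Probe sets with several genes or none in the platform annotation form the larger part of the array and entered no comparison above. Tested in the same way, 5492 of 15748 were called at 60 to 72 h against 0 h, 34.9%, a share near that of the named genes. Of these 3027 were higher and 2465 lower, so 55.1% of the calls were upward, against 42.2% among named genes, and the median log2 difference was 0.17. With 3 arrays on one side and 1 on the other, no array was examined as an outlier.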

How the results depend on the processing

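No paired analysis was possible because each time had 1 array and the labels carry no replicate numbers. Of 189 called genes that the rule names, 105 kept their call under every alternative that tested them, and 0 reversed. Most lost calls came with a limit of 2 on the log2 difference (65 genes), array set as a term beside a spline (41, or 42 with median centring) and the values as deposited (17). Over all genes, the values as deposited gave 2993 higher and 920 lower, the limit of 2 gave 784 and 600, and all probe sets, named or not, gave 4550 and 4577. Leaving out the lowest 50% gave 1162 higher and 1154 lower, and no filter on low values gave 1647 and 3024. Leaving out 1 array gave 1488 to 1552 higher and 1990 to 2108 lower. The wider step lowered the share of calls kept to 70.9%.

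Among lists, xylem cell death had 2 higher with the limit of 2 and 2 with the set term under either scaling, and auxin response had 4 with the lowest 50% left out and 4 with the set term and median centring. Plastid-encoded genes had 43 lower with median centring (43 on the 4 arrays alone), 26 with the set term and median centring, and 4 with the limit of 2. Leaving out 1 array kept 25 photosynthesis genes, 7 mitotic, 6 to 7 secondary wall, 5 xylem cell death, 6 phloem, 7 auxin and 14 to 17 plastid-encoded. The cause was not tested, apart from fewer genes or a larger size being asked. Chosen after seeing the data were the set-term fit with median centring, the 4 arrays alone with it, and the use of all probe sets. The 0 h array could not be left out, and promoter motifs were not run. Depth of a gene's signal limits folds of genes dim at 0 h.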

Other observations

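The families below are given beside shares of 13.8% higher and 19.0% lower over all tested genes. Of 6 tested tubulins, the building blocks of microtubules, TUB1 and TUB7 rose 7.45-fold and 7.35-fold and TUB5 fell 7.49-fold. TUB1 read 7.11, 7.20 and 6.93 at 60 to 72 h and 4.18 at 0 h, and TUB5 read 5.01, 5.06 and 4.60 against 7.79. Of 13 tested IQD genes, whose proteins bind calmodulin and microtubules, 4 rose and 2 fell: IQD28, IQD29, IQD30 and IQD31 were higher by between 1.19 and 1.73 on the log2 scale, and IQD24 was at -1.84. IQD29 was at 0.79 without the 24 to 30 h step, and 4 of the 6 IQD calls kept a difference of 1. Of 7 tested NET genes, which encode actin-binding proteins, 3 rose, NET3A by 3.08, NET3C by 2.91 and NET1A by 1.09, and 1 fell, NET4B at -1.33. Without the 24 to 30 h step NET1A was at 0.95 and NET4B at -0.92, and both lost their call when array set was a term, NET4B also on the values as deposited. NET3A was at 1.94 with values held at the 40th percentile. Among 13 tested TRM genes, of proteins that recruit others to microtubules, TRM30 rose by 4.57, with 8.50, 8.88 and 9.02 at 60 to 72 h against 4.23 at 0 h, and TRM26 was at -2.44.

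Of 8 tested autophagy genes 3 rose, all of the ATG8 family that coats the autophagosome. ATG8H read 9.11, 9.38 and 9.78 at 60 to 72 h and 7.20 at 0 h, ATG8G rose by 1.61 and ATG8B by 1.13, the last without a call when the 72 h array was left out or array set was a term, and ATG8G without one with 72 h as the only late array. ATG8C, ATG8D, ATG8E and ATG8F were not called. Serine carboxypeptidase-like genes other than those of xylem included scpl20, with 9.66, 9.88 and 9.96 against 4.87, and SCPL45, with 10.13, 10.16 and 10.38 against 5.85, while SCPL34 fell by 2.13. Of 10 tested factors of plastid RNA editing and processing, 4 fell and 0 rose, CRR42 by 3.14. The median difference of 9 subunits of RNA polymerase II was 0.35 and that of 6 Mediator subunits 0.23. Across the nuclear chromosomes the share of genes called lay between 13.4 and 14.8% for higher and between 18.2 and 19.7% for lower.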
